A study of Neurospora crassa OR74A with 12 samples.

Results

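The loss of upf-1 was examined in mycelia of the filamentous fungus Neurospora crassa that had been given 20 mM H2O2. The comparison takes in 3 upf-1KO libraries and 3 wild-type (WT) libraries, chosen by the genotype and treatment in their labels, which make 6 of the 12 libraries of the series. The other 6 libraries, 3 of upf-1KO and 3 of WT, came from untreated mycelia of the same strains. RNA-seq reads were counted per gene, and the study asked how nonsense-mediated mRNA decay (NMD) bears on the response to oxidative stress. Mycelia of every group were grown in liquid minimal medium in constant light at one temperature, and the replicates were separate pools of culture according to the methods of the study. The labels name the strain background OR74A for all libraries, whereas the methods describe strains that carry the bd allele of ras-1 and knockouts made by replacing the gene with a hygromycin resistance cassette in a host whose ku70 gene, needed for end joining, had been mutated. The upf-1KO strain may therefore differ from WT at ku70 as well, and the reads of that gene are given below. The time in H2O2 is not given in the sources used here.

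NMD is a surveillance pathway that destroys mRNAs on which ribosomes stop too early, along with many normal mRNAs that carry upstream reading frames, long 3' untranslated regions or introns after the stop codon. UPF-1 is its RNA helicase, and UPF-2 and UPF-3 join UPF-1 to the stalled ribosome and the exon junction complex. H2O2 is removed in fungi by catalases, which are heme enzymes, and by peroxidases and peroxiredoxins.

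Of the 6 libraries, 2 stood apart from the rest of their group. Replicate 2 of upf-1KO had a Spearman correlation of 0.860 and 0.853 with replicates 1 and 3 of its own group, while those replicates had 0.989 with each other. Replicate 2 had 0.866 with WT replicate 1 and 0.818 with each of the other WT libraries. In this library 838 genes were at least 2-fold above and 281 genes at least 2-fold below every other H2O2 library, 15.3% of the 7337 genes tested. WT replicate 1 had 74 such genes above and 68 below, and its correlation with the other WT libraries was 0.944 and 0.945, against 0.985 between those 2. Among untreated libraries the lowest correlation within a group was 0.995 for upf-1KO and 0.992 for WT. The total counts of all 12 libraries ranged between 5891672 and 7703271. The 10 most abundant genes took 12.5 to 18.5% of the counts in upf-1KO with H2O2 and 18.8 to 29.8% in WT with H2O2, and the factor that corrects for such differences in library composition (TMM) was 1.13, 1.55 and 1.18 in upf-1KO and 0.851, 0.682 and 0.836 in WT. All normalised read counts below are scaled with these factors to the mean of the 6 H2O2 libraries. Values are given for all 6 libraries, and for the called genes that are named and the medians of gene lists also without upf-1KO replicate 2.

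The disrupted locus was read first. upf-1 (NCU04242, listed as prd-6 in RefSeq, chromosome V, positions 5327537 to 5332820 of the NC12 assembly) had 327, 173 and 325 normalised read counts in upf-1KO, against 697, 906 and 718 in WT. The groups did not overlap, and the log2 fold change was -1.49 ± 0.31 (SE, adjusted p = 0.043 by edgeR's quasi-likelihood test with Benjamini-Hochberg adjustment, which gives every adjusted p of the report unless another tool is named). Without replicate 2 the log2 fold change was -1.21 (adjusted p = 0.014), and untreated it was -1.63. The knockout libraries therefore still held reads in the gene, 374, 257 and 375 in H2O2, and where along the gene these lie was not analysed here. mus-51 (NCU08290, chromosome IV, positions 2520412 to 2522837), the Neurospora ku70 gene, had 4, 0 and 3 reads in upf-1KO, against 67, 72 and 107 in WT. The summed WT reads were 59.9 times those of upf-1KO after scaling (exact 95% interval of 28.6 to 151 for counting error), and untreated upf-1KO had 0, 0 and 0 reads, against 188, 220 and 205 in untreated WT. The strains thus differed at ku70 in every library, so an effect of upf-1 and an effect of ku70 cannot be told apart in any value below.

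The genes beside these loci were not called. NCU04241 and NCU04243, next to upf-1, had log2 fold changes of 1.01 (adjusted p = 0.085) and 0.58, and NCU08291, next to mus-51, had 0.74 (adjusted p = 0.089, and 0.74 without replicate 2). The remaining UPF genes were not called either. upf-2 (NCU05267) had 157, 169.7 and 161 normalised read counts in upf-1KO, against 215, 251 and 263 in WT, with no overlap and a log2 fold change of -0.58 (adjusted p = 0.19), or -0.58 without replicate 2. upf-3 (NCU03435) had 50.8, 187 and 47.7 in upf-1KO, against 109.7, 77.8 and 70.9 in WT. Replicate 2 was above and the other knockout libraries below every WT library, and its log2 fold change was 0.15 with all libraries and -0.78 (adjusted p = 0.13) without replicate 2.

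With H2O2, upf-1KO had 209 genes higher (2.85% of 7337 tested) and 82 genes lower (1.12%) than WT, at a threshold of at least 2-fold and an adjusted p under 0.05. The genes that were higher had a median log2 fold change of 2.24 and included the rodlet protein gene eas, the gluconeogenesis gene acu-6 and the alternative oxidase gene aod-1. The genes that were lower had a median log2 fold change of -1.65 and included 6 genes of the mitochondrial genome, the sodium ATPase gene ena-1 and the clock-controlled gene ccg-6. Without replicate 2 of upf-1KO the counts were 483 higher (6.52% of 7404) and 245 lower (3.31%), and 288 of the 291 genes called with all 6 libraries were called again with the same sign, 209 higher and 79 lower. The 3 that were not were NCU02813, NCU06457 and NCU14089. Over all genes tested the median log2 fold change was 0.16, and 0.02 without replicate 2.

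The number of calls depended on which libraries and which dispersion model were used. Leaving out WT replicate 2 left 0 calls in either direction by edgeR (682 higher and 340 lower at an unadjusted p under 0.05), leaving out WT replicate 3 left 2 higher and 1 lower, leaving out upf-1KO replicate 1 left 12 and 5, and leaving out upf-1KO replicate 3 left 20 and 5. The counts without WT replicate 1 were 202 and 67. At an unadjusted p under 0.05 and 2-fold, 855 genes were higher (11.7%) and 402 lower (5.48%), and DESeq2 called 440 higher (6.0%) and 341 lower (4.65%), among them 208 and 82 of the edgeR calls. The share of calls that were higher was 71.8% by edgeR and 56.3% by DESeq2, 97.1% when the counts were scaled by library totals alone, which moves the median of all genes to 0.87, and 53.4% with an offset for gene length. The 3 upf-1KO libraries were all above the 3 WT libraries in 1377 genes (18.8%) and all below them in 1120 genes (15.3%). All 209 and all 82 called genes were among these.

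**Figure D1:**
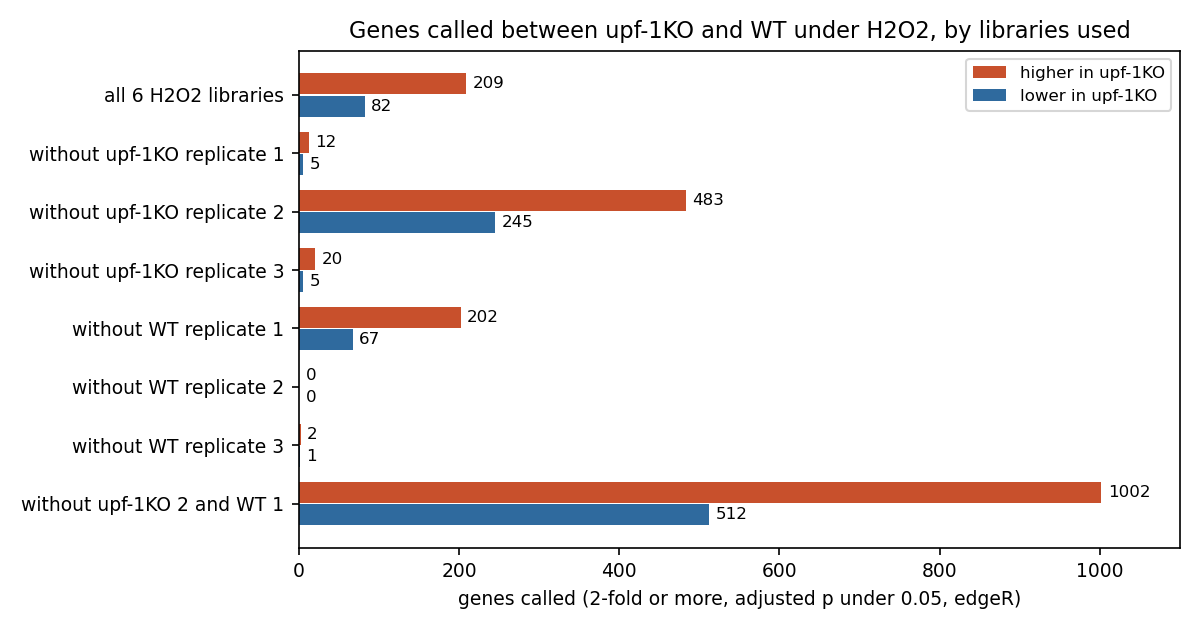
Numbers of genes called (x axis) higher and lower in upf-1KO than in WT with H2O2, by the libraries that entered the fit (y axis). All 6 libraries gave 209 higher and 82 lower, leaving out upf-1KO replicate 2 gave 483 and 245, and leaving out WT replicate 2 gave 0 and 0.

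Replicate 2 of upf-1KO was the lowest of its group in 127 of the 209 genes called higher and the highest in 54. Among the 82 genes called lower it was the lowest in 54 and the highest in 13. Leaving it out moved the median log2 fold change of the 209 genes to 2.31 and that of the 82 genes to -1.54. The genes called higher were less abundant than those called lower. Of the 209, 91 had a mean of at least 100 normalised read counts over the 6 libraries, and 22 had no WT library above 3 reads. Of the 82, 66 had such a mean and 1, NCU07150, had no upf-1KO library above 3 reads. The 22 genes, con-6 and gh3-3 among them, could pass the filter on low counts through upf-1KO alone, which sets their sign in part. Other called genes with few WT reads could do so too, such as NCU16805 (7, 2 and 4 WT reads) and NCU01057 (3, 1 and 8). Of all called genes 63 overlap another annotated gene, and since the strand setting of the counting is not given in the sources used here, reads of such pairs may be shared. Each of those named below is marked as overlapping.

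The genes with the largest fold change among those higher in upf-1KO with a mean of at least 100 normalised read counts came from several functions. NCU16805, which is annotated only as a hypothetical protein, had 235, 282 and 260.0 normalised read counts in upf-1KO, against 8.26, 3.62 and 4.89 in WT. Its log2 fold change was 5.46 ± 0.39 (SE, adjusted p = 0.0039), without replicate 2 it was 5.41, and untreated it was 5.62. NCU01057, annotated as a taurine catabolism dioxygenase, had 249, 159.6 and 225 in upf-1KO, against 3.54, 1.81 and 9.77 in WT. This gave a log2 fold change of 5.29 ± 0.54 (adjusted p = 0.013), or 5.47 without replicate 2, with every upf-1KO library far above every WT library. NCU09800, annotated as a taurine dioxygenase, was higher as well, with 544, 263 and 547 in upf-1KO, against 56.6, 79.6 and 77.0 in WT (log2 fold change 2.67, adjusted p = 0.016, and 2.98 without replicate 2). Such enzymes use oxygen and 2-oxoglutarate to release sulfite from taurine, which gives the cell a source of sulfur.

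Gluconeogenesis was represented by acu-6 (NCU09873), which encodes phosphoenolpyruvate carboxykinase, the enzyme that turns oxaloacetate into phosphoenolpyruvate. It had 879.8, 469 and 781 normalised read counts in upf-1KO, against 66.1, 56.1 and 51.3 in WT. The WT libraries lay close together and replicate 2 was the lowest of upf-1KO, and the log2 fold change was 3.61 ± 0.34 (adjusted p = 0.012), or 3.87 without replicate 2.

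The gene eas (NCU08457) encodes the hydrophobin that forms the water-repellent rodlet layer of aerial hyphae and conidia. It was among the most abundant mRNAs of the knockout, with 70883, 51353 and 76931 normalised read counts in upf-1KO, against 6392, 6481 and 6493 in WT. The WT libraries were nearly equal, and the log2 fold change was 3.36 ± 0.37 (adjusted p = 0.013), or 3.55 without replicate 2. In untreated mycelia the raw reads were 87432, 79076 and 82495 in upf-1KO, against 103029, 86211 and 94964 in WT, a log2 fold change of -0.23, so the strains were close to each other there. These are bulk samples, in which fewer cells of a type and less RNA per cell cannot be told apart.

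Regulators and other annotated genes followed. set-6 (NCU09495), a SET-domain histone methyltransferase gene, had 507, 262 and 433 normalised read counts in upf-1KO, against 48.4, 59.7 and 41.5 in WT (log2 fold change 3.01, adjusted p = 0.014, and 3.28 without replicate 2). NCU00416, a C2H2 zinc finger protein gene that overlaps NCU00417, had 1044, 436 and 974 in upf-1KO, against 118, 114 and 144 in WT (log2 fold change 2.70, adjusted p = 0.016, and 3.04 without replicate 2). In both genes replicate 2 was the lowest of the knockout and still lay above every WT library. NCU03191, annotated as component A of the enzyme that attaches geranylgeranyl lipids to Rab proteins, had 2154, 1381 and 2021 in upf-1KO, against 274, 318 and 274 in WT (log2 fold change 2.68, adjusted p = 0.013, and 2.89 without replicate 2). app (NCU04533, overlapping NCU04532), the gene of a protein abundant in the fruiting bodies called perithecia, had 1225, 525 and 1305 in upf-1KO, against 77.9, 195 and 175 in WT (log2 fold change 2.77, adjusted p = 0.027, and 3.13 without replicate 2). Its untreated log2 fold change was 1.08.

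The other genes with a large change and a mean of at least 100 normalised read counts have no annotated function. NCU08351, which overlaps NCU08350, had 1015, 466 and 1313 normalised read counts in upf-1KO, against 42.5, 63.3 and 78.2 in WT (log2 fold change 3.92, adjusted p = 0.014, and 4.28 without replicate 2). NCU07368, which overlaps NCU07369, had 245, 174 and 201 in upf-1KO, against 15.3, 7.24 and 24.4 in WT (log2 fold change 3.68, adjusted p = 0.014, and 3.79 without replicate 2). In neither did the groups overlap, which was a condition for naming them.

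**Figure D2:**
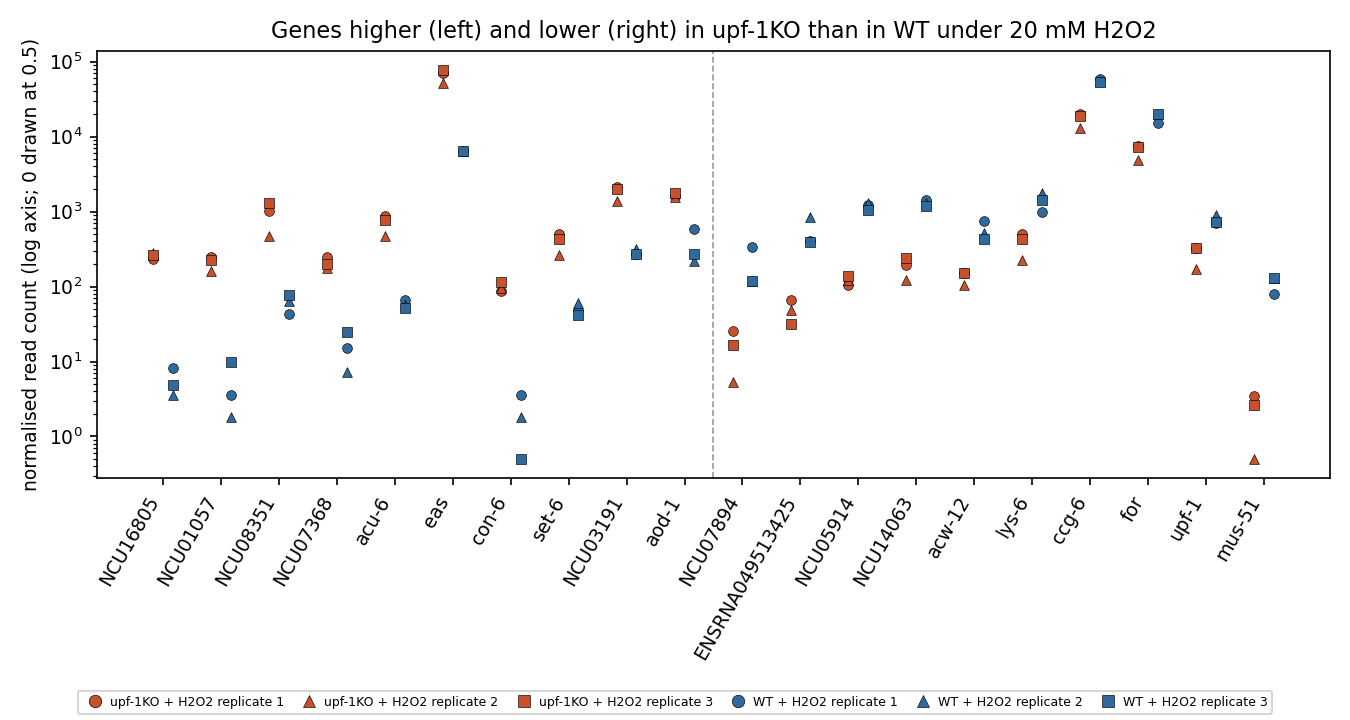
Normalised read counts (y axis, log scale, 0 drawn at 0.5) in each upf-1KO and WT library with H2O2, marked by replicate, for 20 of the called genes (x axis), higher in upf-1KO to the left of the dashed line and lower to the right. The groups do not overlap in any gene, as in all called genes, and eas lies at 51353 or more in upf-1KO and at 6493 or less in WT.

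Of the 82 genes lower in upf-1KO, 10 carry a symbol or an annotated product, against 18.5% of all genes tested. Products came only from the study's lists of upregulated genes and heme synthesis genes, so lower genes could hardly carry one. By symbol alone, 10 of the 82 lower and 18 of the 209 higher genes are named. NCU05914 had 104, 124 and 139.6 normalised read counts in upf-1KO, against 1212, 1301 and 1064 in WT. Its log2 fold change was -3.28 ± 0.25 (adjusted p = 0.0039), with -3.26 without replicate 2. NCU14063 had 195, 123 and 241 in upf-1KO, against 1427, 1282 and 1197 in WT (log2 fold change -2.80, adjusted p = 0.013, and -2.55 without replicate 2). In these 2 genes the WT libraries stayed within a narrow range. In NCU00995 and NCU07894 they did not. NCU00995 had 1514, 1128 and 1722 in upf-1KO, against 16112, 5428 and 5288 in WT (log2 fold change -2.62, adjusted p = 0.033, and -2.45 without replicate 2). NCU07894, which overlaps NCU07895, had 25.4, 5.39 and 16.5 in upf-1KO, against 337, 119 and 119.7 in WT (log2 fold change -3.62, adjusted p = 0.031, and -3.18 without replicate 2). In both, WT replicate 1 was well above the other WT libraries. NCU00308 had 31.5, 60.6 and 44.2 in upf-1KO, against 398, 224 and 200.3 in WT (log2 fold change -2.59, adjusted p = 0.02, and -2.83 without replicate 2). The non-coding RNA gene ENSRNA049513425 had 66.5, 49.2 and 31.2 in upf-1KO, against 405, 837 and 397 in WT (log2 fold change -3.47, adjusted p = 0.015, and -3.43 without replicate 2). Of 96 non-coding RNA genes 5 had enough reads to be tested, and 2 of these were called lower, against 1.12% of all genes. Their reads were 0.00136 to 0.0025% of the counts in upf-1KO and 0.00723 to 0.0127% in WT, so that members could pass the filter on low counts through WT alone, which sets their sign in part.

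Annotated genes that were lower encode a transporter, cell wall proteins and enzymes. ena-1 (NCU05046), the P-type ATPase that pumps sodium out of the cell, had 1171, 901 and 1083 normalised read counts in upf-1KO, against 3239, 3375 and 3371 in WT. The WT libraries were nearly equal, and the log2 fold change was -1.66 ± 0.23 (adjusted p = 0.016), or -1.53 without replicate 2, while untreated it was -2.93. acw-12 (NCU08171, overlapping NCU08172) and acw-7 (NCU09133) are genes of proteins anchored in the cell wall. acw-12 had 151, 104 and 153 in upf-1KO, against 743, 521 and 431 in WT (log2 fold change -2.06, adjusted p = 0.02, and -1.87 without replicate 2). acw-7 had 2738, 2745 and 2287 in upf-1KO, against 10519.8, 6665 and 4975 in WT (log2 fold change -1.51, adjusted p = 0.048, and -1.53 without replicate 2). In acw-7 WT replicate 1 was well above the other WT libraries. The gene for (NCU02274), whose product serine hydroxymethyltransferase passes single carbon units between serine and folate, had 7509.9, 4816 and 7207 in upf-1KO, against 15299, 20078 and 20035 in WT (log2 fold change -1.503, adjusted p = 0.043, and -1.29 without replicate 2). lys-6 (NCU08898), of lysine synthesis, had 497, 223 and 429.9 in upf-1KO, against 995, 1756 and 1413 in WT (log2 fold change -1.86, adjusted p = 0.037, and -1.54 without replicate 2). ro-7 (NCU03563) belongs to the ropy genes of the dynein and dynactin motor. It had 52.5, 47.8 and 65.9 in upf-1KO, against 158, 170.0 and 169 in WT (log2 fold change -1.58, adjusted p = 0.031, and -1.45 without replicate 2). The groups did not overlap in any of these genes, which was a condition for naming them.

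The untreated libraries of the same 2 strains share no library with the H2O2 comparison and gave 985 genes higher in upf-1KO (12.8% of 7720) and 164 lower (2.12%). Of the 206 genes higher with H2O2 that could be tested in both, 161 were also higher untreated, which is 78.2% of the H2O2 list and 18.8% of the 855 untreated genes tested in both. Of the 76 genes lower with H2O2 that could be tested in both, 21 were also lower untreated, which is 27.6% of the H2O2 list and 15.2% of the 138 untreated genes. Only 2 genes were higher with H2O2 and lower untreated, and none the reverse. Without replicate 2 the overlap was 309 of 472 higher genes (65.5%) and 25 of 232 lower genes (10.8%). Of the 855 genes higher untreated, 754 (88.2%) had a positive log2 fold change with H2O2, against 57.7% of all genes tested, and their median was 1.10. The Spearman correlation of the 2 log2 fold changes across 7233 genes, which are not independent replicates, was 0.335, or 0.433 across 7271 genes without replicate 2.

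**Figure D3:**
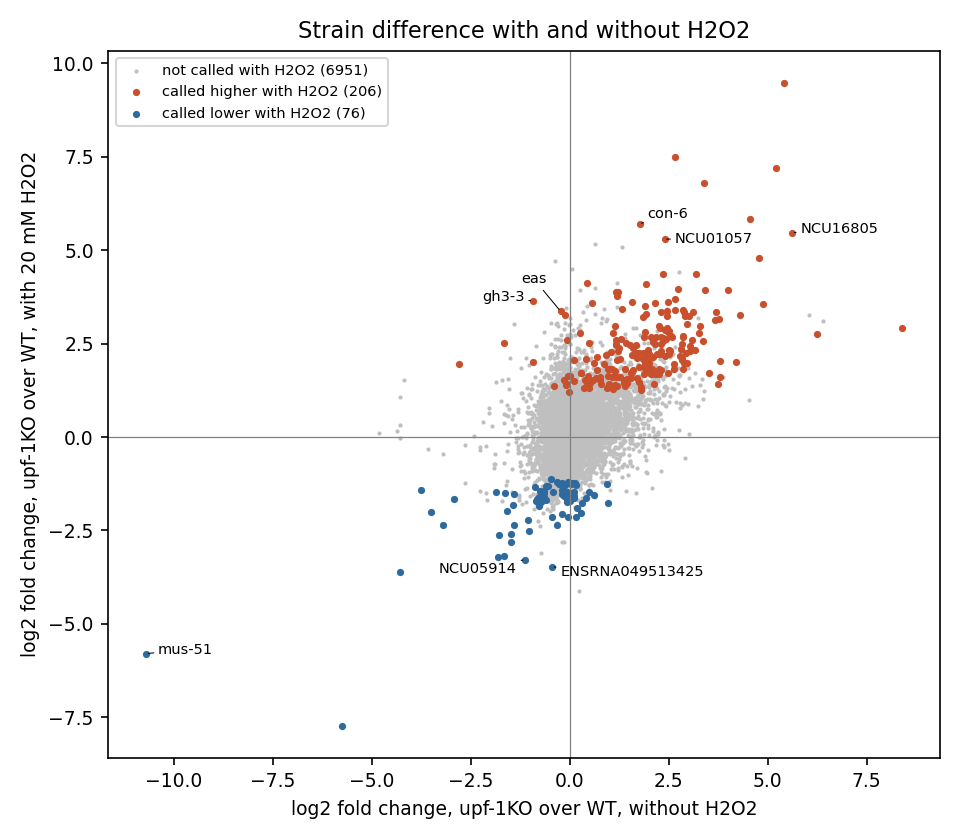
Log2 fold change of upf-1KO over WT with H2O2 (y axis) and in untreated mycelia (x axis), 1 point per gene, for 7233 genes tested in both. The 206 genes called higher and the 76 called lower with H2O2 are in colour and 6951 others in grey, and eas, gh3-3 and con-6 lie high on the y axis with untreated values of -0.23, -0.94 and 1.77.

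A test of the interaction, the difference between the log2 fold change with H2O2 and that in untreated mycelia, passed an adjusted p of 0.05 in 529 of 7878 genes (6.71%). It was fitted over all 12 libraries with a shared spread. Untreated replicates were more alike than those with H2O2, so this spread may be too small and the adjusted p-values too low. Of the 45 genes higher with H2O2 but not called untreated, 32 passed it with the same sign, and of the 55 lower with H2O2 but not called untreated, 34 did. These genes were selected by the same fold changes that the test compares, so passing with the same sign was in large part set by the selection. Among the 161 genes higher in both comparisons 15 passed it, and among the 21 lower in both 6 did. Among named genes that passed it, the difference was 3.70 for eas (adjusted p = 9.0e-05), 3.01 for NCU01057 (adjusted p = 0.008) and 2.16 for acu-6 (adjusted p = 0.0053). It was 4.71 for gh3-3 and 4.07 for con-6, in which every WT library with H2O2 had 3 reads or fewer, so the size of these fitted values is uncertain. NCU01057 had 3, 1 and 8 reads in those WT libraries, so its difference is uncertain in size too. Negative differences were those of ENSRNA049513425, at -2.92 (adjusted p = 0.011), and NCU05914, at -2.04 (adjusted p = 0.00096).

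The 4 catalase genes, whose products split H2O2 into water and oxygen, had 0 calls with H2O2 by edgeR (2 higher at an unadjusted p under 0.05, and cat-2 higher by DESeq2), 1 higher without replicate 2 and 4 higher untreated. The median log2 fold change was 0.83 with H2O2, against 0.16 over all genes tested, 0.63 without replicate 2 and 2.2045 untreated. Among all genes 2.85% were called higher, 11.7% at an unadjusted p, 6.0% by DESeq2, 6.52% without replicate 2 and 12.8% untreated. cat-3 (NCU00355), the main catalase of growing hyphae, had 1561, 2059 and 1282 normalised read counts in upf-1KO, against 1553, 1642 and 1539 in WT. The groups overlapped and the log2 fold change was 0.05 ± 0.25 (adjusted p = 0.91), or -0.12 without replicate 2. Untreated, cat-3 averaged 4118 ± 71.2 in upf-1KO and 929 ± 96.1 in WT (SD, n = 3 each, on the scale of the untreated libraries), a log2 fold change of 2.15, and the interaction was -1.99 (adjusted p = 0.001).

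cat-4 (NCU05169) had 212, 109 and 166 normalised read counts in upf-1KO, against 30.7, 76.0 and 89.2 in WT. Its groups did not overlap, and its log2 fold change was 1.32 (adjusted p = 0.13), and 1.58 (adjusted p = 0.045) without replicate 2, where it was called. cat-2 (NCU05770) encodes a catalase-peroxidase, an enzyme with both activities. It had 387, 2258 and 374 in upf-1KO, against 427, 112 and 111 in WT. The 2 libraries that stand apart, replicate 2 of upf-1KO and replicate 1 of WT, were the highest of their groups. The log2 fold change was 2.21 (adjusted p = 0.15) with all 6 libraries, 0.82 without upf-1KO replicate 2 and 1.76 without both of those libraries (adjusted p = 1.3e-07). cat-1 (NCU08791), the catalase that accumulates in conidia, had 2590.2, 2062 and 2449.6 in upf-1KO, against 3278, 1188 and 1130.0 in WT. WT replicate 1 was above all 3 knockout libraries and the other WT libraries were below them, with a log2 fold change of 0.34 (adjusted p = 0.63), 0.45 without upf-1KO replicate 2, 1.02 without WT replicate 1 (adjusted p = 0.054) and 1.12 without both libraries (adjusted p = 6.6e-08), where it passed the threshold.

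Other genes of peroxide and superoxide metabolism (superoxide dismutases, glutathione S-transferases, a thioredoxin and the NADPH oxidase genes that make superoxide) had 0 calls among 10, with 7 positive and 3 negative log2 fold changes and a median of 0.19, or 0.31 without replicate 2. By edgeR 1 of them was lower at an unadjusted p under 0.05, and DESeq2 called 1 lower, against 5.48% and 4.65% of all genes. Untreated there were 0 calls and a median of -0.12.

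Heme is the cofactor of catalases. The 7 heme synthesis genes had 0 calls (1 higher and 1 lower at an unadjusted p under 0.05, and 0 by DESeq2), and a median log2 fold change of -0.20, which became -0.02 without replicate 2 and 0.45 with library totals alone. Among all genes 11.7% were higher and 5.48% lower at an unadjusted p. The first enzyme, 5-aminolevulinate synthase (NCU06189), had 569.9, 1423 and 464 normalised read counts in upf-1KO, against 387, 436 and 277 in WT. Replicate 2 was more than 2-fold above the other knockout libraries, and the log2 fold change was 1.16 (adjusted p = 0.16), or 0.53 without that library. The last enzyme, ferrochelatase (NCU08291), had 834, 872 and 784 in upf-1KO, against 492, 532 and 465 in WT, with no overlap and a log2 fold change of 0.74 (adjusted p = 0.089), or 0.74 without replicate 2 (adjusted p = 0.039, under the 2-fold threshold). The gene lies beside mus-51, the ku70 gene. With and without replicate 2, the remaining enzymes had 0.06 and 0.05 for NCU01013 (aminolevulinate dehydratase), -0.20 and -0.02 for NCU01546 (coproporphyrinogen oxidase), -0.40 and -0.12 for NCU02771 (uroporphyrinogen decarboxylase, overlapping NCU02772), -0.40 and -0.43 for NCU10292 (porphobilinogen deaminase, overlapping NCU08877) and -1.01 and -0.72 for NCU02395 (uroporphyrinogen synthase), with an adjusted p of 0.128 or more in each fit.

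Alternative respiration bypasses complexes of the electron transport chain. aod-1 (NCU07953) encodes the alternative oxidase, which passes electrons straight to oxygen. It had 1630.0, 1564 and 1759.6 normalised read counts in upf-1KO, against 578, 222 and 269 in WT. The knockout libraries were close to each other, replicate 2 included, and the log2 fold change was 2.21 ± 0.38 (adjusted p = 0.027), or 2.26 without replicate 2, while untreated it was 2.01. Of 8 genes of this kind aod-1 was the only one called, with or without replicate 2, against 2.85% of all genes called higher with it and 6.52% without it. The list's median was 0.72, and 0.29 without replicate 2.

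Reads of the mitochondrial genome were a smaller share of the counts in upf-1KO with H2O2, 0.0160 to 0.0221% in upf-1KO and 0.0355 to 0.0509% in WT, and the groups did not overlap. In untreated mycelia the share was 0.00262 to 0.00321% in upf-1KO and 0.00241 to 0.00301% in WT, and the groups overlapped. Of the 56 mitochondrial genes 14 had enough reads to be tested, and 6 were called lower and none higher, against 1.12% and 2.85% of all genes. Without replicate 2, 10 of 17 were called lower, against 3.31% of all genes. The log2 fold changes of the 14 lay between -2.32 and -1.35, but some could pass the filter on low counts through WT alone (NCU16024 had 10, 12 and 4 reads in upf-1KO, against 24, 14 and 19 in WT), which sets their sign in part. NCU16028 had 454, 236 and 394 normalised read counts in upf-1KO, against 970.0, 1548 and 1136 in WT (log2 fold change -1.75, adjusted p = 0.031, and -1.48 without replicate 2). NCU16013, which overlaps NCU16014 and NCU16015, had 63.0, 49.2 and 49.4 in upf-1KO, against 248, 371 and 178 in WT (log2 fold change -2.30, adjusted p = 0.019, and -2.20 without replicate 2). In both genes every knockout library was below every WT library.

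On the nuclear chromosomes the share of genes called was 2.07 to 4.202% for higher and 0.56 to 1.48% for lower. The 38 nuclear genes of the respiratory chain had 0 calls (4 lower at an unadjusted p under 0.05, and 3 lower by DESeq2), with 29 negative and 9 positive log2 fold changes and a median of -0.49, which became -0.21 without replicate 2, where 2 were called lower, and 0.15 with library totals alone. The 7 genes of cytosolic ribosomal proteins (crp genes) had 0 calls by edgeR, and 6 were lower at an unadjusted p under 0.05 and by DESeq2. All 7 were negative, between -1.87 and -0.89, with a median of -1.28 and of -0.64 with library totals alone. Without replicate 2 the genes crp-5, crp-2 and crp-7 were called lower and the median was -0.92. Beside both lists, 5.48% of all genes were lower at an unadjusted p, 4.65% by DESeq2 and 3.31% without replicate 2.

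**Figure D4:**
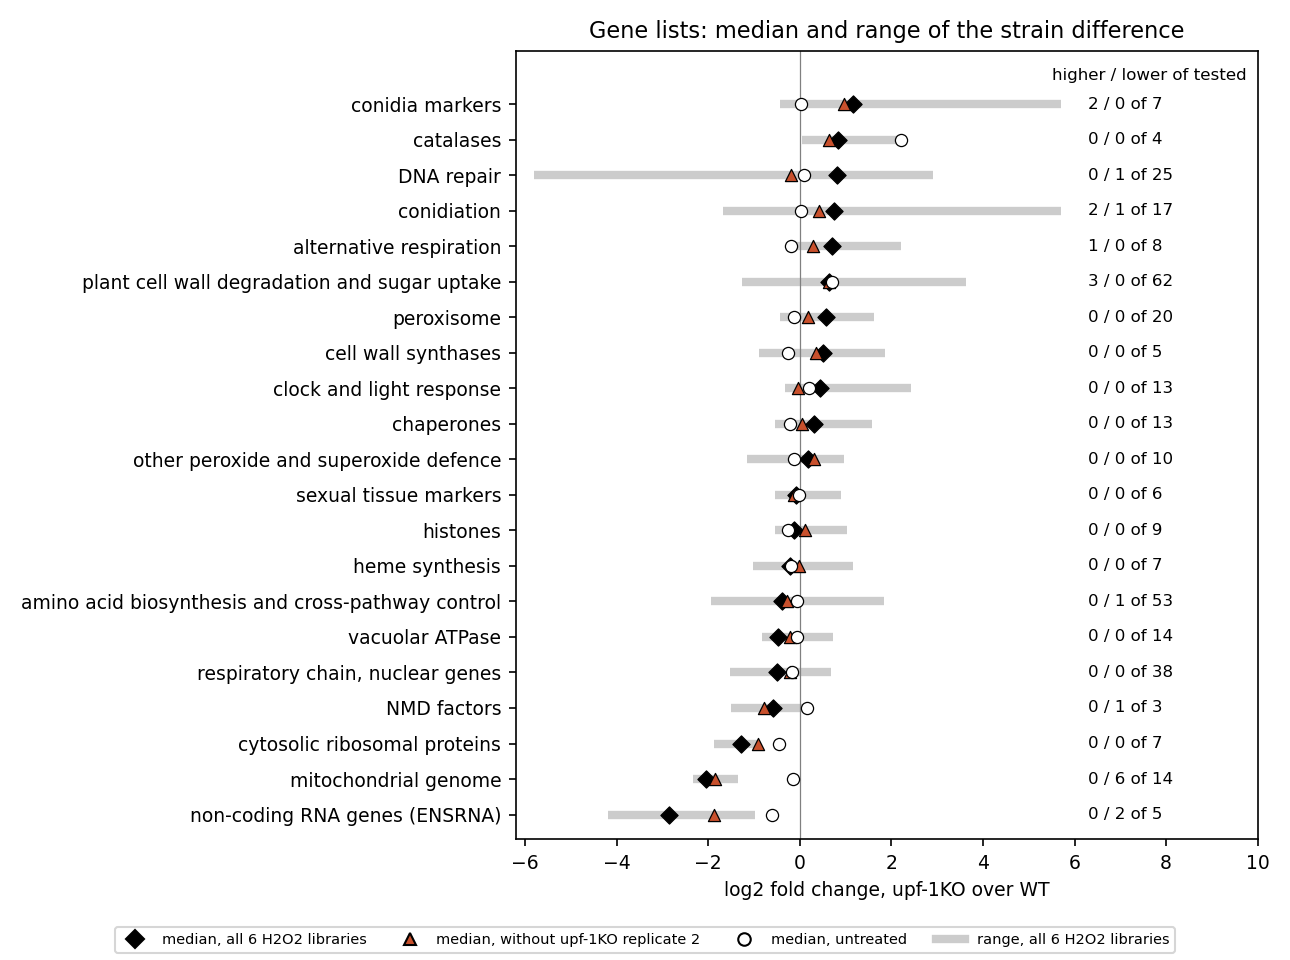
Log2 fold change of upf-1KO over WT (x axis) by gene list (y axis), with the median for all 6 H2O2 libraries (diamonds), without upf-1KO replicate 2 (triangles) and untreated (circles), the range with all 6 as a grey bar, and the counts called at the right. The range of the 7 ribosomal protein genes lies wholly below 0, and the catalases have a median of 0.83 with H2O2 and 2.2045 untreated.

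**Figure D5:**
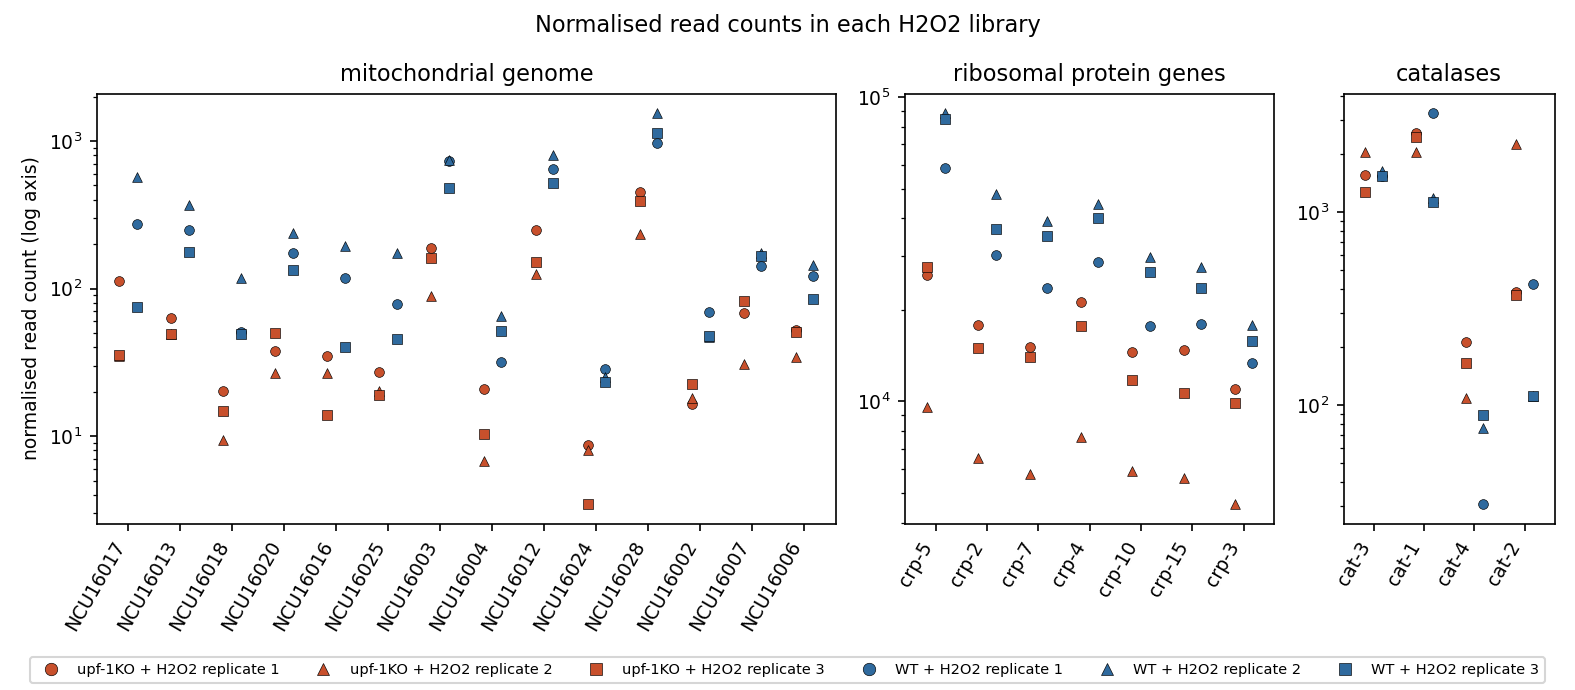
Normalised read counts (y axis, log scale) in each upf-1KO and WT library with H2O2, marked by replicate, for the genes (x axis) of the mitochondrial genome, cytosolic ribosomal proteins and catalases, from the most negative log2 fold change on the left. upf-1KO lies below WT in all 7 ribosomal protein genes, with replicate 2 the lowest, while in cat-2 replicate 2 lies far above every other library.

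Of 17 conidiation genes tested 2 were higher, eas and con-6, and 1 was lower, ccg-6, against 2.85% and 1.12% of all genes. Without replicate 2, 3 of 18 were higher and 2 lower, against 6.52% and 3.31% of all genes. DESeq2 called 2 higher and 2 lower, against 6.0% and 4.65%, and the median was 0.74 with replicate 2 and 0.43 without it. con-6 (NCU08769, overlapping NCU08768), a gene expressed in conidia, had 99, 144 and 133 reads in upf-1KO, against 3, 1 and 0 in WT. Summed and scaled, the upf-1KO reads were 55.2 times those of WT (exact 95% interval of 21.4 to 204 for counting error), with an adjusted p of 0.014, and of 0.0043 without replicate 2. Untreated, the reads were 48, 31 and 41 in upf-1KO, against 9, 14 and 11 in WT, a log2 fold change of 1.77. ccg-6 (NCU01418), one of the genes found as clock-controlled, had 20209, 12989 and 18963 normalised read counts in upf-1KO, against 58671, 55942 and 52983 in WT (log2 fold change -1.68, adjusted p = 0.043, and -1.48 without replicate 2). Its groups were far apart, and its untreated log2 fold change was -0.61.

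A list of markers of conidia, the asexual spores, took 1.11 to 1.26% of the counts in upf-1KO and 0.0633 to 0.0823% in WT with H2O2, and 1.13 to 1.20% in upf-1KO and 1.14 to 1.40% in WT untreated. These sums are nearly all eas. Of 7 markers tested 2 were higher, eas and con-6, against 2.85% of all genes, with a median of 1.17. Without replicate 2 the median was 0.97 and 3 of 8 were higher, against 6.52% of all genes. With so few WT reads, con-6 could pass the filter on low counts through upf-1KO alone. The markers con-10 and con-13 had too few reads to be tested, with con-13 at 11, 5 and 4 reads in upf-1KO and 1, 0 and 0 in WT. fl, the regulator of conidium formation, had a log2 fold change of 0.74 (adjusted p = 0.22) and was called without replicate 2 at 1.02. Markers of sexual tissue took 0.0109 to 0.0150% in upf-1KO and 0.0057 to 0.0080% in WT with H2O2. The shares of both marker lists are of raw counts, without a factor for library composition. With library totals alone the median log2 fold change of all genes was 0.87. With the factor, the sexual markers had 0 calls among 6 tested and a median of -0.08 (0 at an unadjusted p under 0.05 and 0 by DESeq2). Without replicate 2 the median was -0.14 and 1 was called higher, against 6.52% of all genes. The part of such cells in the results was not tested.

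Among 62 tested genes of plant cell wall degradation and sugar uptake, a set of secreted enzymes and transporters, 3 were higher and none lower, against 2.85% and 1.12% of all genes (median 0.64, and 0.65 without replicate 2). Without replicate 2, 9 of 63 were higher and 1 lower, against 6.52% and 3.31% of all genes. Untreated, 26 of 72 were higher and 5 lower, against 12.8% and 2.12%. gh3-3 (NCU08755), a family 3 glycoside hydrolase gene, had 31, 30 and 28 reads in upf-1KO, against 2, 1 and 1 in WT, and could pass the filter through upf-1KO alone. The summed and scaled reads were 13.1 times those of WT (exact 95% interval of 4.92 to 49.0 for counting error), with an adjusted p of 0.016, and of 0.0094 without replicate 2. Untreated its log2 fold change had the other sign, -0.94, with 128, 85 and 116 reads in upf-1KO, against 181, 249 and 184 in WT. gh3-1 (NCU03641), of the same family, had 53.4, 61.9 and 54.6 normalised read counts in upf-1KO, against 8.26, 14.5 and 20.8 in WT (log2 fold change 1.96, adjusted p = 0.045, and 1.92 without replicate 2). The third was gh7-2 (NCU04854), a family 7 gene of the type that cuts cellulose, with 153, 77.4 and 132 in upf-1KO, against 12.98, 14.5 and 8.55 in WT (log2 fold change 3.33, adjusted p = 0.015, and 3.61 without replicate 2). The WT reads were 7, 8 and 17 for gh3-1 and 11, 8 and 7 for gh7-2, so both could pass the filter through upf-1KO alone.

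Of 53 genes of amino acid synthesis 1, lys-6, was lower and none higher, against 1.12% and 2.85% of all genes. Without replicate 2, 3 were lower, DESeq2 called 6 lower and 1 higher, and 6 were lower and 2 higher at an unadjusted p under 0.05. Among all genes 3.31% were lower without replicate 2, 4.65% lower and 6.0% higher by DESeq2, and 5.48% and 11.7% unadjusted. The list had 42 negative and 11 positive log2 fold changes and a median of -0.39, which became -0.28 without replicate 2 and 0.32 with library totals alone. cpc-1 (NCU04050), the transcription factor that turns on amino acid synthesis genes when amino acids run short, had 9805, 7141 and 9368 normalised read counts in upf-1KO, against 8081, 9847 and 9675 in WT. The groups overlapped, with a log2 fold change of -0.07 (adjusted p = 0.89), or 0.09 without replicate 2. Untreated it was higher in upf-1KO, at 1.34, and the interaction was -1.30 (adjusted p = 0.012). ngf-1 (NCU10847, overlapping NCU00943 and NCU16421), which encodes a GCN5 histone acetyltransferase, had 33.3, 81.5 and 17.3 in upf-1KO, against 15.3, 19.9 and 13.4 in WT (log2 fold change 1.46, adjusted p = 0.18, and 0.69 without replicate 2). The laccase gene lacc (NCU04528) had 11, 20 and 10 reads in upf-1KO, against 13, 1 and 1 in WT, and was not called.

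Other lists had no call with all 6 libraries. With and without replicate 2, the median log2 fold change was 0.31 and 0.05 for 13 chaperone genes, -0.13 and 0.11 for 9 histone genes, and 0.44 and -0.04 for 13 clock and light response genes. It was 0.58 and 0.19 for 20 peroxisome genes, -0.47 and -0.21 for 14 vacuolar ATPase genes, and 0.51 and 0.36 for 5 cell wall synthase genes. The sign thus turned without replicate 2 for histone genes and for clock and light response genes. With library totals alone the medians of the histone and vacuolar ATPase genes became 0.53 and 0.19. Over the 12 lists without a call, which hold 146 tested genes, 8 genes were higher and 12 lower at an unadjusted p under 0.05, DESeq2 called 1 higher and 10 lower, and edgeR without replicate 2 called 3 higher and 6 lower. Among all genes the shares higher and lower were 11.7% and 5.48% unadjusted, 6.0% and 4.65% by DESeq2, and 6.52% and 3.31% without replicate 2.

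Of 25 tested DNA repair genes 21 had a positive log2 fold change with all 6 libraries (median 0.80), against 57.7% of all genes tested, and 11 without replicate 2 (median -0.20), against 51.04% of all genes. With all 6 libraries the only call was mus-51, and 6 others were higher at an unadjusted p under 0.05, against 11.7% of all genes. The list took 0.082 to 0.323% of the counts in upf-1KO and 0.0532 to 0.0809% in WT. These shares carry no factor for library composition, and with library totals alone the median log2 fold change of all genes was 0.87. Chosen after their values were seen, parp (NCU08852), the gene of poly(ADP-ribose) polymerase, which marks broken DNA, had 14.9, 1291 and 19.9 normalised read counts in upf-1KO, against 26.0, 1.81 and 7.33 in WT, and the ankyrin repeat gene NCU08603 had 37.6, 1857 and 24.3 in upf-1KO, against 44.8, 23.5 and 41.5 in WT. In parp and NCU08603 replicates 1 and 3 of upf-1KO lay within or near the range of WT and replicate 2 lay far above. In the other direction, NCU00979, also chosen after its values were seen, had 35039.6, 11749 and 38315 in upf-1KO, against 61072, 108166 and 111292 in WT. Its log2 fold change was -1.72 (adjusted p = 0.11) with replicate 2 and -1.31 (adjusted p = 0.036) without it, where it was called.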

How the data were processed

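The labels' notes name HISAT2 2.2.1 and featureCounts of Subread 2.0.1, and the deposited table holds raw counts per gene of the NC12 assembly. The same table holds FPKM that the authors made from the counts and which were not used here. Counts were fitted with edgeR 4.0.16 (R 4.3.3): TMM scaling, filterByExpr and the quasi-likelihood test over the 6 H2O2 libraries, with Benjamini-Hochberg adjustment. A gene was called at 2-fold or more and an adjusted p under 0.05. The main alternatives were DESeq2 1.42.0, voom (limma 3.58.1) with library quality weights, other scalings and filters, a gene length offset and leaving out each library. The p-values measure the spread between 3 pools per group, and those of the interaction take that spread over all 12 libraries together. Exact intervals (Clopper-Pearson) cover counting error only. A script was tested on simulated counts.

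Named genes were those given with a locus in the study's text or heme synthesis table, the catalases, the 6 largest changes per direction and the 8 largest among annotated genes (called with and without upf-1KO replicate 2, mean of at least 100 normalised counts, no overlap), and the extremes called in each gene list. The genes and lists were chosen with earlier results of these data known. Symbols came from the RefSeq table of gene names, which matched 10588 of 10685 genes, and products only from the gene lists of the study, so annotated genes lean towards those. Within each group no library was found to be deposited again under another name (chi-square per degree of freedom of 2.21 or more). Libraries of different groups were not compared in this way.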

Additional observations from a re-analysis of the deposited data

Results flagged for a closer look

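In 17 of 48 named genes the difference between upf-1KO and WT was not the same with and without H2O2 by the interaction test (adjusted p under 0.05, log2 scale), against 6.71% of all genes. Many of the 48 were named for their large changes with H2O2, which the test compares, so passing was favoured by that choice. The signed log2 fold change was higher with H2O2 in gh3-3 (4.71), con-6 (4.07), eas (3.70), NCU01057 (3.01), acu-6 (2.16), ena-1 (1.38) and the ferrochelatase gene NCU08291 (1.05). In ena-1 it was negative in both and smaller in size with H2O2 (-1.66, against -2.93 untreated). The signed value was lower with H2O2 in ENSRNA049513425 (-2.92), NCU05914 (-2.04), cat-3 (-1.99), the mitochondrial gene NCU16028 (-1.95), acw-12 (-1.77), ro-7 (-1.32), cpc-1 (-1.30), for (-1.22), NCU14063 (-1.20) and upf-2, NCU05267 (-0.97). In cat-3 and cpc-1 the strain difference shrank, from 2.15 and 1.34 untreated to 0.05 and -0.07 with H2O2. Without upf-1KO replicate 2 the test passed in 24 named genes, and with the replicate number as a block in 16.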

How the results depend on the processing

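No named gene changed sign past the threshold under any alternative. With all 6 libraries (209 higher, 82 lower) the counts were 870 and 414 when the dispersion was taken from all 12 libraries, 440 and 341 by DESeq2, 1044 and 503 by voom with library quality weights, 184 and 77 with RLE size factors, 1323 and 40 with library totals alone, 100 and 42 when each library needed 10 or more counts, 173 and 151 with a gene length offset, and 855 and 402 at an unadjusted p. Leaving out single libraries gave 0 to 483 higher and 0 to 245 lower. Leaving out upf-1KO replicate 2 and WT replicate 1 together, chosen after seeing the data, gave 1002 and 512. Without upf-1KO replicate 2 (483 higher, 245 lower) DESeq2 called 513 and 396, an unadjusted p gave 761 and 420, and, chosen after seeing the data, library totals alone gave 1436 and 60, a gene length offset 382 and 404, and a fit over all 12 libraries but this one 767 and 496. Of the 32 named genes called, 32 were called again by DESeq2, by voom and without upf-1KO replicate 2, 27 with library totals alone, 13 without upf-1KO replicate 1 or 3, 3 without WT replicate 3 and 0 without WT replicate 2. Genes named for the largest changes had to be called without upf-1KO replicate 2, so for them that result was fixed in advance.

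The replicate numbers do not pair the samples (correlations of same-numbered deviations of -0.29, -0.18 and 0.28). With the replicate number as a block, 60 genes were higher and 13 lower, 60 and 12 of them among the calls without it, and 136 and 74 with block and gene length offset. Genes with few reads, such as con-6 and gh3-3, are limited by counting error.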

Other observations

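Some annotated genes outside the lists were higher in upf-1KO with H2O2, all chosen after their values were seen. Products came only from the study's lists of upregulated genes and heme synthesis genes, so their higher untreated values were in large part set by that choice. These genes include some of RNA processing, and how many such genes were tested was not counted. NCU03226, annotated as Y14, a subunit of the exon junction complex, had 762, 697 and 849 normalised read counts in upf-1KO, against 232, 241 and 307 in WT (log2 fold change 1.57, edgeR adjusted p = 0.02). The splicing factor genes NCU08395 (Dim1), NCU02000 (subunit 10 of SF3B, overlapping NCU02001) and NCU02837 (branch site protein p14) had 2.31, 1.97 and 1.39, and untreated 3.03, 2.001 and 1.15. In each the knockout libraries, replicate 2 included, lay close together and above WT.

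Metabolic genes were among them too. NCU08856, annotated as myo-inositol oxygenase, had 101, 119 and 112 reads in upf-1KO, against 0, 0 and 0 in WT, at least 21.0-fold higher with 3 reads per library taken as the floor. fdh (NCU03813), the formate dehydrogenase gene, had 575, 616 and 448 normalised read counts in upf-1KO, against 177, 119 and 111 in WT. Its log2 fold change was 2.01 with H2O2 and 4.198 untreated, an interaction of -2.08 (adjusted p = 0.0017). The hsp30-like gene NCU07232 had 805, 568 and 887 in upf-1KO, against 236, 293 and 310.3 in WT, with 1.43 and 3.74 (interaction -2.20, adjusted p = 0.0015). Among lower genes pmg (NCU03509) had 629, 764 and 613 in upf-1KO, against 1229.6, 2143 and 2024 in WT, with -1.43 and -3.75 (interaction 2.43, adjusted p = 0.0028).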
